A study of Mus musculus with 2 samples.

Results

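The Notch receptors, their ligands and their Hes target genes were followed in teratomas, and comprised 10 of the 45777 genes counted. They were chosen by name for their place in the pathway, with earlier results of these data known. They comprised the receptors Notch1, Notch2 and Notch3, the ligands Dll1, Dll3, Dll4, Jag1 and Jag2, and the targets Hes1 and Hes5. The E14 group was wild-type E14, a mouse embryonic stem cell (ESC) line. The E14-Sox2TA/WT group was E14 carrying the T258A change, which replaces the threonine at residue 258 of Sox2 with alanine, on 1 Sox2 allele, introduced with CRISPR/Cas9. The edited cells came from clones grown from single sorted cells, which were kept in serum with LIF and 2i and used after 2i was withdrawn. For unedited E14 the methods describe culture in serum with LIF, and neither cloning nor 2i. Sorting, cloning and earlier 2i thus went with the edited group and cannot be told apart from the edit here. Cells of either group were placed under the skin of 3 BALB/c-nu mice, a strain that lacks T cells but keeps other host cells, and teratomas were taken 14 days later. Each group was represented by 1 library of polyA RNA, and whether a library held 1 teratoma, several teratomas or several clones is not given in the sources used here. The labels name teratoma as the tissue, whereas the protocol given with them describes RNA taken from a stem cell line. Because host and graft were both mouse, reads of host cells could not be separated from those of the graft.

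Notch receptors are membrane proteins that are activated by Delta-like or Jagged ligands on a neighbouring cell. Ligand binding leads to cleavage of the receptor by ADAM proteases and by the gamma-secretase complex, and the freed intracellular domain joins the DNA-binding protein Rbpj and a Mastermind-like coactivator in the nucleus. Hes1 and Hes5, transcriptional repressors of the basic helix-loop-helix type, are the best known targets in the developing nervous system, where they hold back proneural genes and keep progenitors from becoming neurons. The same pathway also serves blood vessels, somites and many epithelia, so that a teratoma, a tumour of mixed tissues, holds several possible sources of each transcript.

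The E14 library had 50529171 reads on genes and the E14-Sox2TA/WT library had 49030281. In what follows, E14 and E14-Sox2TA/WT stand for the library of each group. With 1 library per group, no difference given here has a replicate check, and no p-value was computed. Levels are given as TPM, an abundance measure in which counts are scaled by transcript length, and folds are ratios of TPM. The 95% Clopper-Pearson intervals beside the folds come from the read counts. They cover counting error only and compare the 2 libraries, not the genotypes. Log2 ratios are those of TPM with 1 added and are negative where the E14-Sox2TA/WT library was lower. Over the 11578 genes reaching a TPM of 10 in either library, the median log2 ratio was -0.18, and a centred log2 ratio is the ratio after subtraction of this median. Sox2, the edited gene, had a TPM of 246 in E14 and of 130 in E14-Sox2TA/WT, 1.89-fold lower (1.84 to 1.94), and its alleles were not separated.

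Hes5 and Dll1, the target and the ligand with the largest ratios in what follows, are shown with the bases before a transcript start, so that the letters of the Rbpj site and of E boxes can be read in place. These sequences come from RefSeq on GRCm38.p6 and cover the 250 bases before the start. The start used for Hes5 lies inside the RefSeq span of the gene, which begins further upstream, and that used for Dll1 is the outermost one. Windows reaching a further 50 bases past the start were available for 9 of the 10 genes. There were 10 windows in all because Dll1 had several starts. The gene without a window was Hes1 or Jag2. Neither gave a match to any motif given here, so a lack of sites is shown for neither. The core of the site bound by Rbpj, TGGGAA on either strand, was in 25.6% of all 32851 promoter windows and in 1 of the 10 windows of these genes, that of Hes5. Both of its matches extended to the longer form GTGGGAA, which contains the core and was in 6.38% of all windows. In the Hes5 sequence, which is on the plus strand at chr4:154960673-154960922, capitals mark the longer form, read from the minus strand 226 bases before the start and from the plus strand 83 bases before it. This sequence also holds 1 CANNTG, not in capitals, 194 bases before the start. In the Dll1 sequence, on the minus strand at chr17:15376933-15377182, capitals mark CANNTG, the E box bound by basic helix-loop-helix factors.
Hes5: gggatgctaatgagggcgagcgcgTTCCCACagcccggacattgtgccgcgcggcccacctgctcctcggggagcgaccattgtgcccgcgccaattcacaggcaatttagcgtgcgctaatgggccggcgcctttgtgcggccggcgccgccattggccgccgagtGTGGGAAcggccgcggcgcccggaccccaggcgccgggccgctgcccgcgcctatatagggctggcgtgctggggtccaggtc
Dll1: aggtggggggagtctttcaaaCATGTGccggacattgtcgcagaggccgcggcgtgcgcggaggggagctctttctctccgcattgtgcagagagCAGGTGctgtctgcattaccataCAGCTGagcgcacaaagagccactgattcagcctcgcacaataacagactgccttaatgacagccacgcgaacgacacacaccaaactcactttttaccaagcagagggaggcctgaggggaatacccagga
The 3 E boxes of this Dll1 window lay 229, 155 and 132 bases before the start, and the window at the inner Dll1 start held 1, 220 bases before it. CANNTG was in 72.3% of all windows and in 5 of the 10 windows of these genes. The N box, CACNAG, which Hes proteins bind, was in 42.5% of all windows and also in 5 of the 10. These are matches of letters and no binding was measured.

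A lower TPM was found for 9 of the 10 genes, all but Jag1, in E14-Sox2TA/WT. The summed TPM of all 10 was 312 in E14 and 160 in E14-Sox2TA/WT. The rule of the study's methods calls a gene where the fold exceeds 2 and the TPM reaches 10 in either library. Of the 10 genes, 9 passed this TPM limit, Dll4 being the exception. The rule called 5 of these 9 lower, namely Hes5, Dll1, Dll3, Notch1 and Jag2, and called none higher. Over all 11578 genes that passed the limit, it called 18.7% lower and 10.8% higher. The median log2 ratio of the 10 genes was -0.86, beside -0.06 over all 18558 genes reaching a TPM of 1 in either library. The medians of the lower and upper counting bounds of the 10 genes were -0.98 and -0.73. These bounds are not an interval of the median itself. On FPKM, the deposited values before they are rescaled to a fixed sum, 4 of the 9 were called lower, Jag2 no longer among them, against 14.3% of all genes lower and 13.7% higher. In bulk tissue, fewer cells of a type and less RNA per cell cannot be told apart.

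**Figure D1:**
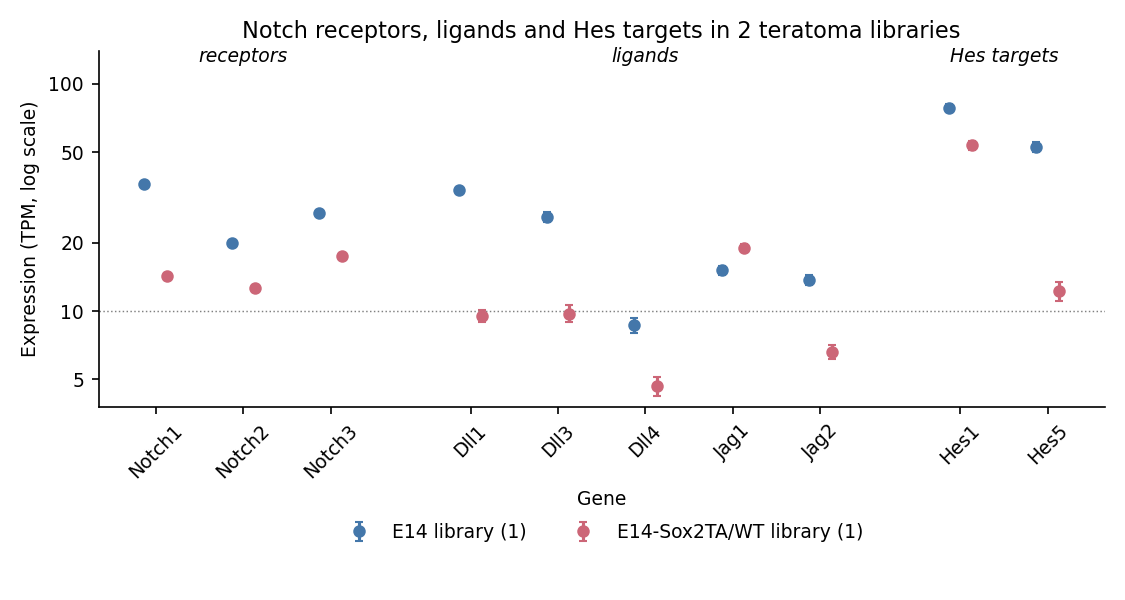
Level of each Notch gene in the 2 teratoma libraries, in TPM on a log axis, with E14 in blue and E14-Sox2TA/WT in red. Points are single libraries, bars are 95% intervals from the read counts only, and the dotted line marks a TPM of 10. Jag1 is the gene whose red point lies above its blue point, and Dll1 and Hes5 show the widest gaps.

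Among the receptors, Notch1 had the largest ratio. Notch1, which is widely used in neural progenitors and blood vessels, lies on chromosome 2 from 26457902 to 26503822, on the minus strand. It had 8317 reads and a TPM of 36.4 in E14 and 3626 reads and a TPM of 14.2 in E14-Sox2TA/WT. Its level was 2.56-fold lower (2.46 to 2.66) in E14-Sox2TA/WT, with a centred log2 ratio of -1.12. Notch1 was the receptor with the highest level in E14 but came second to Notch3 in E14-Sox2TA/WT.

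Notch2, a receptor with a broad range of tissues, lies on chromosome 3 from 98013538 to 98150367, on the plus strand. Its TPM was 20.02 from 5062 reads in E14 and 12.6 from 3564 reads in E14-Sox2TA/WT, 1.59-fold lower (1.52 to 1.66). Notch3, best known from the smooth muscle cells and pericytes of vessels and also made by neural progenitors, lies on chromosome 17 from 32120820 to 32166896, on the minus strand. Its TPM was 27.0 from 5245 reads and 17.5 from 3784 reads, 1.55-fold lower (1.49 to 1.62). Neither receptor passed the 2-fold rule, and their centred log2 ratios were -0.44 and -0.42. The summed TPM of the 3 receptors was 83.5 in E14 and 44.3 in E14-Sox2TA/WT, 1.88-fold lower. Notch4, the endothelial receptor, stayed under the TPM limit with 3.60 in E14 and 3.76 in E14-Sox2TA/WT, a ratio of 1.04 (0.933 to 1.17).

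The Delta-like ligands were lower as a group, with a summed TPM of 68.7 in E14 and 23.9 in E14-Sox2TA/WT, 2.87-fold lower. Dll1, through which newly committed neural precursors activate Notch on their neighbours and which also acts in presomitic mesoderm, lies on chromosome 17 from 15367354 to 15376932, on the minus strand. It had 2933 reads and a TPM of 34.0 in E14 and 924 reads and a TPM of 9.51 in E14-Sox2TA/WT. Its level was 3.57-fold lower (3.32 to 3.85), the largest ratio among the 5 ligands, with a centred log2 ratio of -1.55.

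Dll3, a divergent ligand that does not activate Notch in neighbouring cells and is found in neural precursors and somites, lies on chromosome 7 from 28293555 to 28301785, on the minus strand. Its TPM was 26.0 from 1355 reads in E14 and 9.75 from 567 reads in E14-Sox2TA/WT, 2.67-fold lower (2.42 to 2.95). Dll4, the main Delta-like ligand of sprouting endothelium, lies on chromosome 2 from 119325784 to 119335666, on the plus strand. It was the lowest of the 10 genes in both libraries, with a TPM of 8.66 from 720 reads and of 4.66 from 413 reads. This was 1.86-fold lower (1.64 to 2.103), so that Dll4 met neither limit of the rule.

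The Jagged ligands differed in direction. Jag1, a ligand of vessels, inner ear, heart and many epithelia, lies on chromosome 2 from 137081451 to 137116520, on the minus strand. It had 2012 reads and a TPM of 15.1 in E14 and 2812 reads and a TPM of 19.0 in E14-Sox2TA/WT, 1.26-fold higher (1.19 to 1.33). Its centred log2 ratio was 0.49, and on FPKM it was 1.44-fold higher, still short of 2-fold. Jag2, a ligand of limb, thymus and squamous epithelia, lies on chromosome 12 from 112907803 to 112929812, on the minus strand. Its TPM was 13.7 from 1581 reads and 6.61 from 863 reads, 2.07-fold lower (1.90 to 2.25). The interval of Jag2 included 2-fold, and the gene was 1.80-fold lower on FPKM, so that its call was lost there and under each other scaling tried. The summed TPM of both Jagged ligands was 28.8 in E14 and 25.6 in E14-Sox2TA/WT, 1.12-fold lower.

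The Hes targets were the most abundant of the 10 genes in E14, and they differed from each other in their ratios. Hes5, a target whose level in neural progenitors follows Notch activity closely, lies on chromosome 4 from 154960626 to 154962372, on the plus strand. It had 1722 reads and a TPM of 52.8 in E14 and 448 reads and a TPM of 12.2 in E14-Sox2TA/WT. The level was 4.33-fold lower (3.90 to 4.82), the largest ratio of the 10 genes, with a centred log2 ratio of -1.85. Hes1, which is also controlled by other pathways and is expressed outside the nervous system, lies on chromosome 16 from 30065357 to 30067796, on the plus strand. Its TPM was 78.4 from 2692 reads and 53.6 from 2067 reads, 1.46-fold lower (1.38 to 1.55), and it did not pass the rule. The intervals of the Hes1 and Hes5 folds did not overlap.

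Whether the authors' counting used strand is not stated, and exons of other genes overlap some of these genes on the opposite strand in GENCODE vM21. The overlap was 1068 bases between Notch1 and 0610009E02Rik, 488 bases between Notch3 and Gm17276, 867 bases between Dll1 and A930024N18Rik, 214 bases between Dll4 and Gm14207, and 433 bases between Hes5 and Gm20421. Notch1 also shared 414 bases with Gm13568. Of these partners, 0610009E02Rik had 47 and 33 reads in E14 and E14-Sox2TA/WT, and Gm14207 had 23 and 13. Gm13568, Gm17276, A930024N18Rik and Gm20421 were not among the genes counted. Reads from the opposite strand can therefore not be gauged in this way for Notch3, Dll1 and Hes5.

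The ratios of the receptors were read beside those of other long transcripts, because the log2 ratio over all genes was lower in bins of longer transcripts. The 11578 genes were placed in 20 bins by the length that their reads and FPKM imply. The median log2 ratio was 0.45 in the bin of the shortest transcripts and -0.77 in that of the longest, from 8469 to 30025 nt. This last bin held all 3 receptors, with implied lengths of 10536 nt for Notch1, 11665 nt for Notch2 and 8950 nt for Notch3, and 43.4% of its 579 genes were called lower. Relative to the median of genes of like length, the log2 ratio was -0.52 for Notch1, 0.15 for Notch2 and 0.17 for Notch3, so that Notch1 no longer passed 2-fold and the other two turned sign.

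Hes5, Dll1 and Dll3 stayed more than 2-fold lower on the same comparison. Hes5 and Hes1 lay among transcripts of 1337 to 1585 nt, whose median was 0.04 and of which 10.4% were called lower, and relative to it their log2 ratios were -2.07 and -0.58. Dll1 was at -1.46 relative to a median of -0.27, Dll3 at -1.19 relative to -0.14, and Dll4 at -0.47 relative to -0.30. Jag1 stood at 0.81 above a median of -0.50 and Jag2 at -0.46 relative to one of -0.48. By like length, therefore, 3 of the 9 genes were called lower, beside 13.2% of all 11578 genes lower and 12.9% higher on the same scaling. The part of transcript length in the ratios of single genes was not tested.

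**Figure D2:**
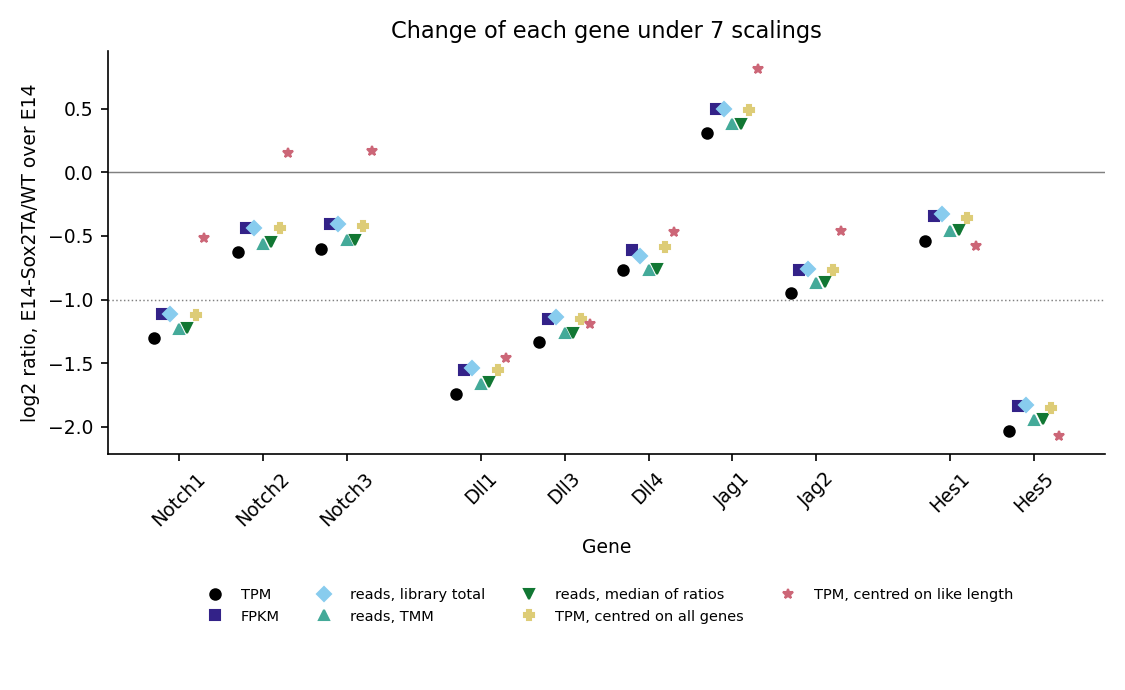
Log2 ratio of each gene, E14-Sox2TA/WT over E14, under 7 scalings of the same 2 libraries: TPM, FPKM, reads by library total, by TMM or by median of ratios, and TPM centred on all genes or on genes of like transcript length. The dotted line marks 2-fold lower. Hes5, Dll1 and Dll3 lie below the line under every scaling shown, Jag1 lies above 0 under every one, and the stars (like length) of Notch2 and Notch3 lie above 0.

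The order of the genes by TPM changed between the libraries. In the E14 library it ran Hes1, Hes5, Notch1, Dll1, Notch3, Dll3, Notch2, Jag1, Jag2 and Dll4. Notch3 and Dll3 in this order did not differ beyond counting error, at a ratio of 1.04 (0.978 to 1.10). In the E14-Sox2TA/WT library it ran Hes1, Jag1, Notch3, Notch1, Notch2, Hes5, Dll3, Dll1, Jag2 and Dll4. There, Notch2 and Hes5 (1.04, 0.938 to 1.15) and Dll3 and Dll1 (1.03, 0.922 to 1.14) did not differ beyond counting error. Jag1 thus ranked 8 in the former and 2 in the latter, Hes5 ranked 2 and 6, and Dll1 ranked 4 and 8.

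Ratios between genes within a library do not depend on the scaling between libraries. The TPM of Jag1 was 0.445 times that of Dll1 (0.420 to 0.471) in E14 and 1.999 times (1.86 to 2.16) in E14-Sox2TA/WT. The ratio of Jag1 to Jag2 was 1.11 (1.04 to 1.18) in E14 and 2.88 (2.67 to 3.11) in E14-Sox2TA/WT. Hes1 and Hes5 have like implied transcript lengths, 1585 and 1504 nt, and Hes1 stood at 1.48 times Hes5 (1.40 to 1.58) in E14 and at 4.40 times (3.97 to 4.88) in the other. Notch1 was 1.35 times Notch3 (1.30 to 1.39) in E14 and 0.814 times (0.778 to 0.853) in E14-Sox2TA/WT. By TPM, the order of Jag1 and Dll1, and that of Notch1 and Notch3, was therefore opposite in the 2 libraries, beyond counting error in each. These intervals take the implied lengths as exact. Over receptor reads in E14-Sox2TA/WT, Notch1 held 33.0% (32.2 to 33.9) and Notch3 34.5% (33.6 to 35.4), and these intervals overlapped.

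Shares within each class show the same values as a composition. The Delta-like ligands held 70.4% of the ligand TPM in E14 and 48.3% in E14-Sox2TA/WT. Over ligand reads, which weight long transcripts more, they held 58.2% (57.2 to 59.3) and 34.1% (32.9 to 35.4). Jag1 alone held 15.5% of the ligand TPM in E14 and 38.4% in E14-Sox2TA/WT, whereas Dll1 held 34.9% and 19.2%. The shares of Dll4, 8.88% and 9.40%, and of Jag2, 14.03% and 13.3%, differed by less than 1 percentage point between the libraries. Over ligand reads, Jag2 held 18.4% (17.6 to 19.2) and 15.5% (14.5 to 16.4), which differed beyond counting error, and Dll4 held 8.37% (7.79 to 8.98) and 7.40% (6.73 to 8.12). Among the receptors, Notch1 held 43.6% and 32.1% of the TPM and Notch3 32.4% and 39.4%, and among the targets Hes5 held 40.3% and 18.5%.

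**Figure D3:**
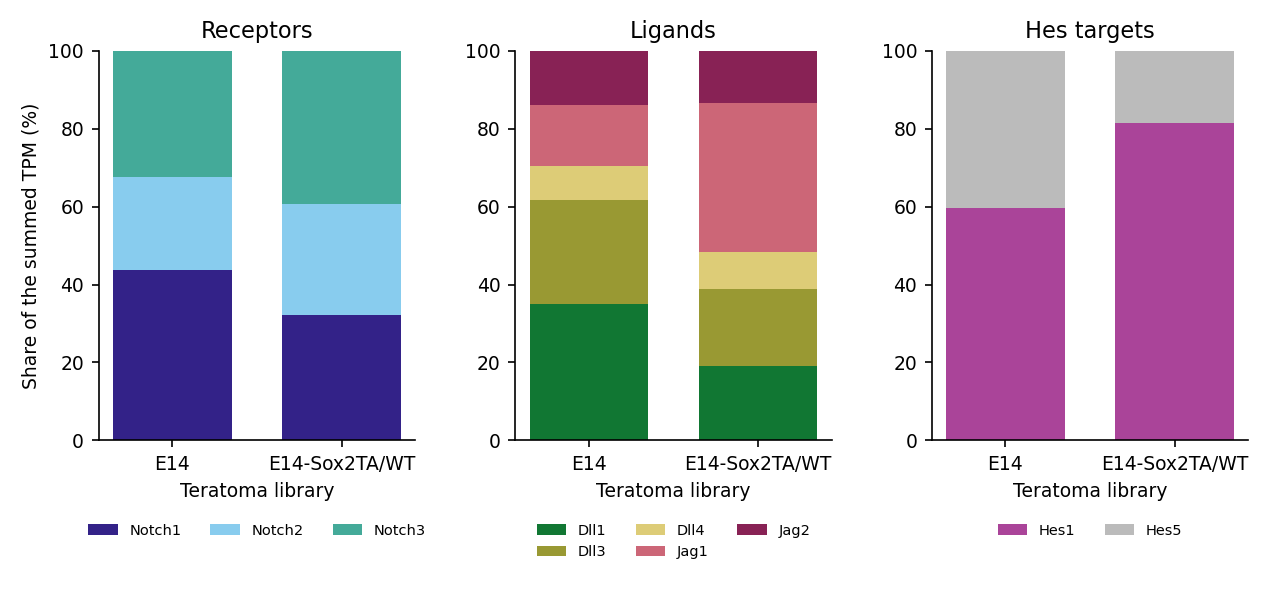
Share of the summed TPM of each class, in percent, held by each receptor, ligand and Hes target in the E14 and the E14-Sox2TA/WT teratoma library, 1 library each. The Jag1 segment widens from 15.5% to 38.4% of the ligands and the Hes5 segment narrows from 40.3% to 18.5% of the targets.

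A further 55 genes that act in the pathway were described by their roles. Of the 45 that passed the TPM limit, 17 were called lower, 1 was called higher and 27 did not pass the rule, beside the 18.7% lower and 10.8% higher of all genes. Their median log2 ratio was -0.53 on TPM (medians of the genes' counting bounds -0.62 and -0.44), -0.34 on FPKM and -0.12 relative to genes of like length. By like length, 12 were past 2-fold lower, beside the 13.2% of all genes on that scaling. The 17 lower calls comprised 5 regulators of receptor turnover, 4 noncanonical ligands, 3 corepressors, 2 Fringe enzymes, 2 other Hes and Hey genes and 1 gene of the nuclear complex, and the cleavage machinery and ligand endocytosis gave none.

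The noncanonical ligands, which bind Notch without the domain of Delta-like and Jagged proteins that activates it, had the widest range. Of these 5, 4 were called lower and 1 higher. Dlk1, a soluble or membrane-bound inhibitor of Notch that is paternally expressed, had a TPM of 249 in E14 and 23.8 in E14-Sox2TA/WT, 10.5-fold lower (9.92 to 11.0). Its relative Dlk2 had 13.1 and 2.86, 4.58-fold lower (3.75 to 5.62). The neuronal ligands Dner, at 66.4 and 12.5, and Cntn1, at 27.9 and 10.6, were 5.31-fold and 2.63-fold lower, and relative to genes of like length the log2 ratio of Cntn1 was -0.82. Egfl7, a secreted endothelial protein that binds Notch, was the exception, with 19.3 in E14 and 43.6 in E14-Sox2TA/WT, 2.26-fold higher (2.06 to 2.49).

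Fringe enzymes add N-acetylglucosamine to fucose on the receptors and so set their response to Delta-like against Jagged ligands. Lfng had a TPM of 60.1 in E14 and 20.9 in E14-Sox2TA/WT, 2.88-fold lower (2.70 to 3.08). Mfng had 57.9 and 17.8, 3.24-fold lower (3.01 to 3.50). With the third Fringe, which did not pass the rule, their summed TPM was 157 and 59.6, 2.64-fold lower. The other enzymes of receptor glycosylation did not pass the rule.

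The machinery that every Notch signal uses had smaller median log2 ratios than the -0.86 of the receptors, ligands and Hes targets. They were -0.19 for receptor cleavage, -0.35 for ligand endocytosis and -0.53 for the nuclear complex. Single genes of these groups that reached a TPM of 1 went as low as -0.90, -0.71 and -1.16, beside -0.63 for Notch2. Of the 10 genes for receptor cleavage, which include the ADAM proteases and gamma-secretase, 7 passed the TPM limit and none was called in either direction. Of the 4 genes for ligand endocytosis, 3 passed the TPM limit and none of these was called. Rbpj, the DNA-binding partner of the cleaved receptor, had a TPM of 37.3 in E14 and 39.2 in E14-Sox2TA/WT, a ratio of 1.05 (1.01 to 1.09). Of the nuclear complex, Maml3, a Mastermind-like coactivator, was called lower at 10.9 and 4.34, 2.51-fold (2.31 to 2.74), a call that like length removed.

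Of the 10 regulators of receptor turnover and feedback, 5 were called lower and the other 5 did not pass the rule. Over all genes past the TPM limit, 18.7% were called lower. The median log2 ratio of these regulators was -0.89, and 8 of the 10 were lower. Dtx1, a Deltex ubiquitin ligase of the receptor, had a TPM of 33.5 in E14 and 5.81 in E14-Sox2TA/WT, 5.78-fold lower (5.29 to 6.32), and its relative Dtx3 had 157 and 65.1, 2.41-fold lower. Numbl, which promotes removal of the receptor from the membrane, had 61.3 and 18.8, 3.26-fold lower. Nrarp, a feedback inhibitor that is itself a Notch target, had 62.0 and 26.1, 2.37-fold lower (2.24 to 2.51). Aak1, an endocytic kinase, had 17.0 and 6.49, 2.61-fold lower, but was at -0.49 on the log2 scale relative to genes of like length.

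Of the 7 corepressors, 3 were called lower, and 2 of these are described. Tle2, a Groucho-type corepressor of Hes proteins, had a TPM of 20.3 in E14 and 5.88 in E14-Sox2TA/WT, 3.46-fold lower (3.11 to 3.85). Spen, which acts with Rbpj in the absence of Notch signal, had 18.7 and 5.67, 3.30-fold lower (3.13 to 3.48), and its log2 ratio relative to genes of like length was -0.79. Of the other Hes and Hey genes, 3 passed the TPM limit and 2 of them were called lower. Hes6, which is made by neural precursors and counters Hes1, had 216 and 65.4, 3.31-fold lower (3.16 to 3.47), and Hey2, a target known from vessels and heart, had 13.5 and 4.35, 3.11-fold lower (2.72 to 3.57).

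**Figure D4:**
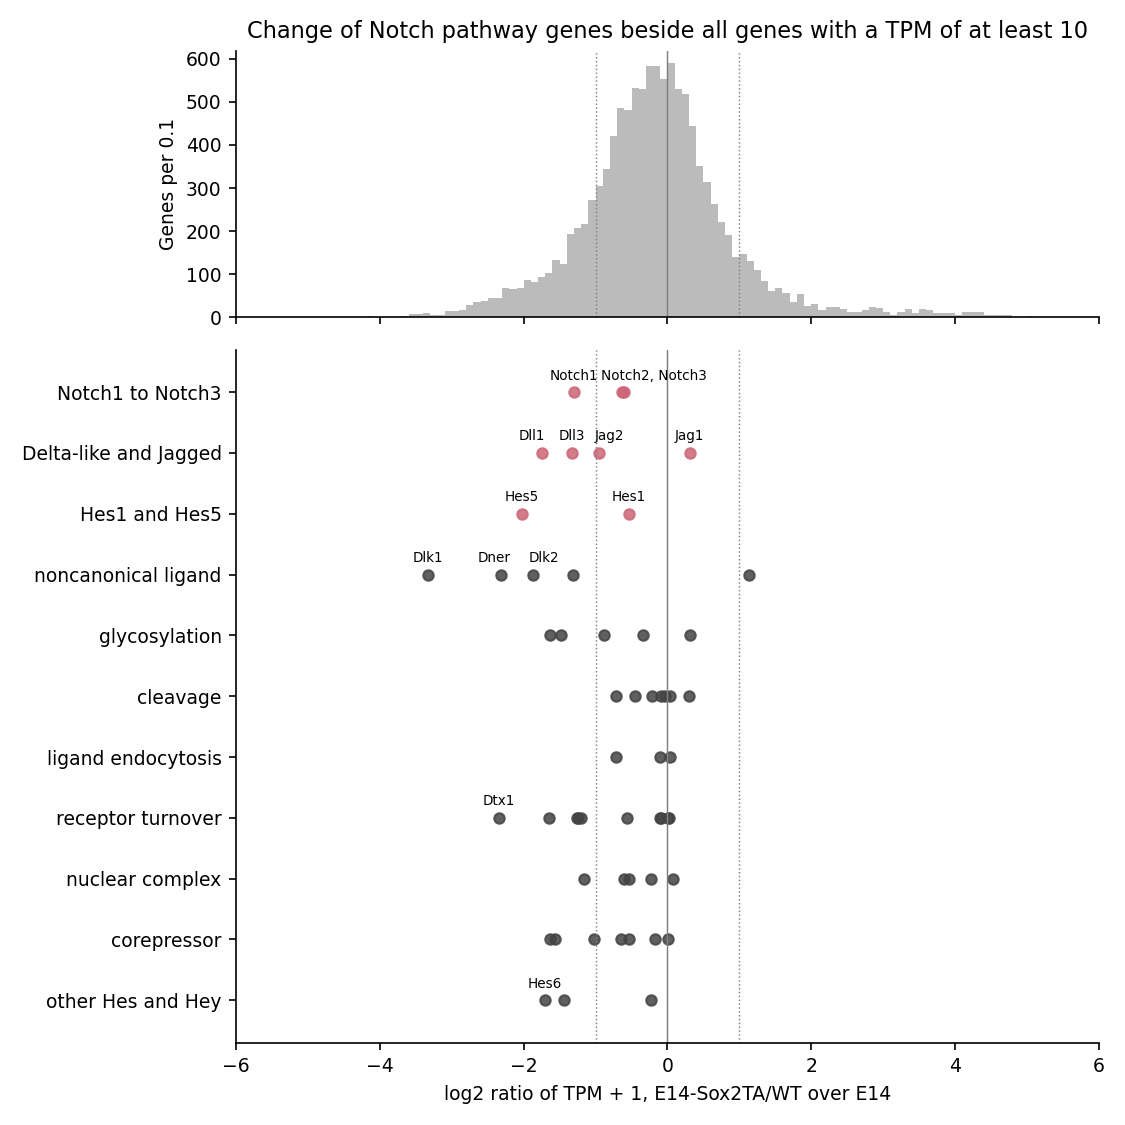
Log2 ratio of TPM + 1, E14-Sox2TA/WT over E14, for all 11578 genes reaching a TPM of 10 in either library (histogram, genes per bin of 0.1) and for the Notch genes that passed the same limit, by role (points; red for receptors, ligands and Hes targets, black for the other pathway genes). Dotted lines mark a log2 ratio of 1 in either direction, and Jag2, with a 2.07-fold difference in TPM, falls just inside because 1 is added to each TPM. Points for cleavage and ligand endocytosis stay between the lines, and the noncanonical ligands spread widest.

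Most markers of the neural lineage, in which Notch acts, were lower beside these genes. The 8 neuron markers were all called lower, at a median log2 ratio of -2.22, and their summed TPM was 2596 in E14 and 386 in E14-Sox2TA/WT. Tubb3, a neuronal tubulin, had 1722 and 170. Stmn2, another cytoskeletal protein of neurons, had 451 and 121, and Dcx, made by young migrating neurons, had 92.9 and 13.1. Of the 8 neural progenitor markers, 6 passed the TPM limit and 4 were called lower, with a median of -1.49 and a summed TPM of 3140 and 995. Fabp7, a fatty acid-binding protein of radial glia, had 2497 and 708, Slc1a3, a glial glutamate transporter, 262 and 76.5, and Sox1, a neural transcription factor, 48.3 and 9.55. The 2 markers of this list that were higher, Prom1 with 58.1 and 73.2 and Pax3 with 5.38 and 8.34, were named after their values were seen.

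Of the 8 proneural factors and markers of committed precursors, 3 passed the TPM limit and all 3 were called lower. The list went both ways, with 5 of the 7 genes that reached a TPM of 1 lower, 2 higher and a median log2 ratio of -0.57. Insm1, a factor of committed precursors, had a TPM of 28.8 in E14 and 5.69 in E14-Sox2TA/WT, 5.07-fold lower (4.58 to 5.62). Neurod4, a related factor under the TPM limit that was named after its values were seen, had 1.67 and 4.82, 2.88-fold higher (2.37 to 3.52). The part of the neural markers in the ratios of Hes5, Dll1, Dll3 and Notch1 was not tested.

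Vascular markers gave no call. None of the 4 endothelial markers that passed the TPM limit, of 10, was called, at a median log2 ratio of 0.08, and the list summed to a TPM of 120 in E14 and 130 in E14-Sox2TA/WT. Pecam1 had 27.6 and 31.6, Emcn 22.6 and 23.2, Kdr 7.98 and 6.01, and Tek 2.21 and 6.44. None of the 4 mural cell markers that passed the limit, of 8, was called, with a summed TPM of 103 and 126. Acta2, a smooth muscle actin, had 49.0 and 52.6, Rgs5, a pericyte marker, 19.5 and 36.9, and Myh11, a smooth muscle myosin, 0.521 and 1.05. Notch3 and Dll4, whose tissues include these vessels, were lower by 1.55-fold and 1.86-fold beside these values, and relative to genes of like length their log2 ratios were 0.17 and -0.47, so that Notch3 changed sign.

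The sums of the other lists were higher or nearly equal. The 8 pluripotency markers were all called higher, with a summed TPM of 83.0 in E14 and 1892 in E14-Sox2TA/WT. Of 8 keratinocyte markers, 3 passed the TPM limit and all 3 were called higher, with a summed TPM of 61.5 and 252, Ivl being at 0 in E14. This list also went both ways, as 5 of its 7 genes that reached a TPM of 1 were higher and 2 lower. The presomitic list, whose tissue uses Dll1, Dll3 and Lfng, had 2 of its 3 genes past the limit called higher and a summed TPM of 50.4 and 86.2, with Msgn1 and Mesp1 at 0 in E14. This difference came from T, a factor of the primitive streak and early mesoderm, which had 4.73 and 40.1, and the other 9 genes summed to 45.7 and 46.1. Those 9 genes differed in direction. Cyp26a1, the other gene called higher, had 6.04 and 21.5, whereas Fgf8, a growth factor of this and other tissues, had 33.8 and 17.98. Of the 7 genes of the whole list that reached a TPM of 1, 4 were higher and 3 lower. Macrophage and neutrophil markers summed to 684 and 1278 with 1 of 5 called higher, and erythroid markers to 391 in each. Cartilage markers summed to 119 and 115, but their genes differed in direction. Sox9, which neural progenitors also express, was called lower with 44.1 and 16.9, and Col2a1, the main cartilage collagen, had 58.0 and 74.8. Chad, a cartilage matrix protein, had 0.561 and 5.09, and Matn1 was at 0 in E14 and at 0.845 in E14-Sox2TA/WT. The part of these tissues in the levels of the Notch genes was not tested.

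**Figure D5:**
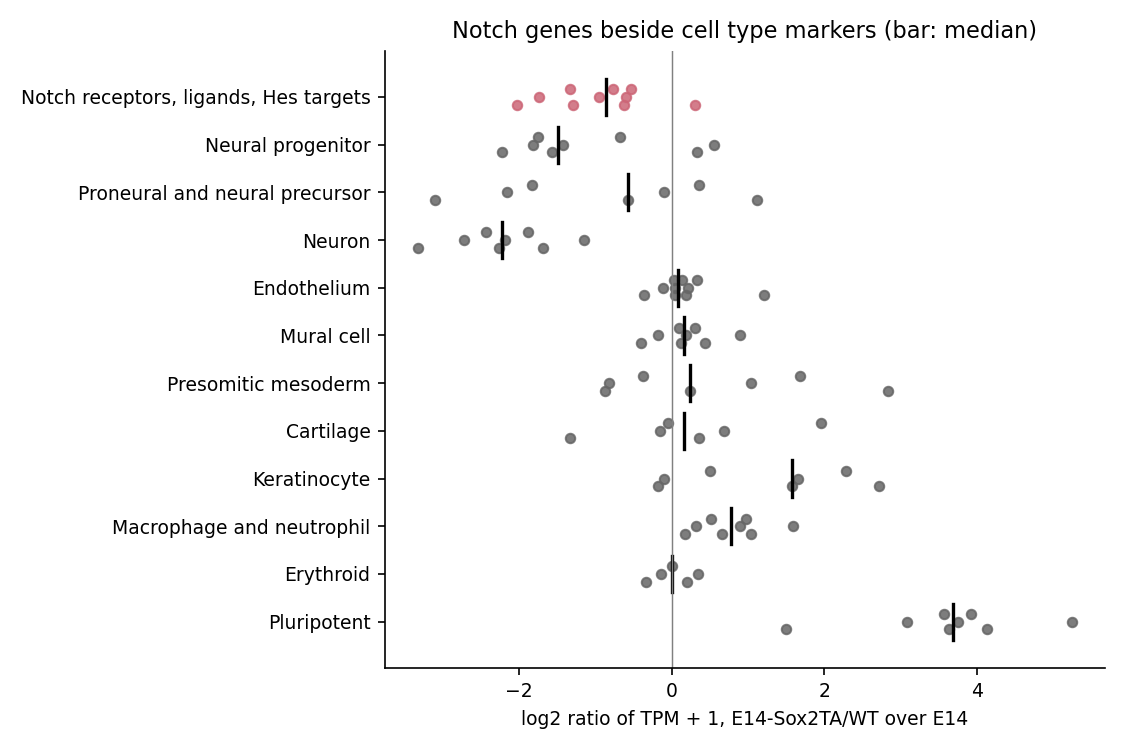
Log2 ratio of TPM + 1, E14-Sox2TA/WT over E14, for the 10 Notch genes (red) and for markers of 11 cell types (grey) reaching a TPM of 1 in either library, 1 point per gene, with black bars for the medians. The median of the Notch genes, -0.86, lies between those of the neural progenitor (-1.49) and the proneural and neural precursor (-0.57) lists. That of neurons is -2.22. The medians of endothelium (0.08) and mural cells (0.15) lie near 0, and that of pluripotency (3.69) lies far above it.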

How the data were processed

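RNA-seq was analysed for 1 E14 and 1 E14-Sox2TA/WT teratoma library, sequenced on an Illumina NovaSeq system. The authors deposited whole read counts per gene without normalization, FPKM (counts per length and depth), and TPM (FPKM brought to a fixed sum). The submitters' processing notes name bcl2fastq 2.20.0, Trimmomatic, HISAT2 2.1.0, StringTie 2.1.3b and the builds hg19 and mm10. Genes carry NCBI identifiers, of which 45679 of 45777 matched a RefSeq table of GRCm38.p6, the build of the positions and promoters. For every gene the TPM ratio of E14-Sox2TA/WT to E14 was 0.871 times the FPKM ratio.

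The study's rule (fold above 2, TPM reaching 10 in either library) was applied over the whole table. No test was made, with 1 library per group. Depth was 50529171 and 49030281 reads, and 95% Clopper-Pearson intervals give the counting error it leaves. Medians used genes reaching a TPM of 1 in either library and a pseudocount of 1. Transcript length was implied by reads and FPKM. The genes and the pathway and marker lists were chosen with earlier results of these data known. Named were the 10 genes, Sox2, pathway genes past the rule, Notch4, Rbpj and genes at 0. In marker lists the 2 most abundant genes and the 2 that changed most were named. Of these, those of the neural, vascular, presomitic and cartilage lists are given. Alternatives covered scaling, transcript length, fold threshold, TPM filter, pseudocount and counting error. The scripts were tested on simulated data. Protein sequences were not used here, and some genes that the rule names are not reported here. Versions were R 4.3.3 with edgeR 4.0.16 (TMM factors only) and Python 3.11.15 with matplotlib 3.10.9, scipy 1.17.1, numpy 2.4.6 and pandas 2.3.3.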

Additional observations from a re-analysis of the deposited data

How the results depend on the processing

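No paired analysis was possible because each group had 1 library, and for the same reason no replicate could be left out. Of the 10 genes, 5 were called lower, and this number was 3 relative to genes of like transcript length and 2 at a fold above 3. Their median log2 ratio of -0.86 became -0.69 on FPKM, -0.71 with reads scaled by library total, -0.68 centred on all genes and -0.50 relative to like length. Relative to like length, Notch2 (0.15) and Notch3 (0.17) turned sign. Of the other pathway genes, 1 was called higher and 17 lower, and these were 0 and 10 at a fold above 3. Their median of -0.53 became -0.34 on FPKM, -0.25 by library total, -0.38 by TMM, -0.37 by median of ratios, -0.35 centred on all genes and -0.12 relative to like length. The share of all genes past a fold above 3 was not computed, so the counts at that fold cannot be compared with it. The limits were 1.5 times the count, or for medians the medians of the genes' counting bounds. The remaining 48 of 62 alternative values of these counts and medians stayed within these limits. Of 70 alternative values for single genes, 42 lay beyond the counting interval of the TPM ratio and 2 had the other sign, those of Notch2 and Notch3. Of 20 shares, 14 differed between TPM and reads by more than the counting interval. With 1 library per group, depth limits only the counting error, and the spread between teratomas is unknown.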

Other observations

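The transcript length that the deposited reads and FPKM imply for a gene can differ between libraries where the mixture of its transcripts was estimated differently. For Dll4 it was 3836 nt in the E14 library and 3672 nt in the E14-Sox2TA/WT library, a difference of -4.3%. For the other 9 Notch genes the difference ran from -0.11% for Jag1 to 1.5% for Jag2, beside a median of 0.27% over 10532 genes with at least 500 reads in each library. Of those genes, 6.38% were at or below the value of Dll4, which itself had 413 reads in the E14-Sox2TA/WT library.

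None of the 10 Notch genes lies on chromosome 8, 15 or 13, whose median log2 ratios differed from that of all genes by -0.49, 0.46 and 0.24. None lies in the mitochondrial genome either, where the median of 26 genes differed by 0.97. The chromosomes that carry them had medians within -0.08 and 0.14 of that of all genes, the lowest for chromosome 7 (Dll3) and the highest for chromosome 3 (Notch2).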
